A study of Mus musculus with 18 samples.

Results

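Whether the epidermis of mice with a keratinocyte deletion of Trpa1 answered inflammation in the same way as that of control mice was read from 12 of the 18 arrays of the series, in 4 groups of 3. Trpa1 encodes an ion channel opened by irritants, best known from pain-sensing neurons. Control mice were K14Cre-Trpa1+/+, called wild type in the sample labels, and mutant mice were K14Cre-Trpa1 fl/fl, in which Cre removes exons 22 to 24, coding for the channel pore. Both genotypes carried the Cre transgene, under control of the promoter of keratin 14, a gene of basal keratinocytes. Naive mice of each genotype received nothing, and the others received complete Freund's adjuvant (CFA), an oil emulsion of killed mycobacteria, under the skin of the hindpaw sole 2 days before the glabrous epidermis was peeled off with dispase. The animals were adult males of mixed C57BL/6, CBA and Swiss Webster background, and the control and mutant colonies had been bred apart for many generations, so genotype and colony cannot be told apart. The naive mice had no vehicle injection, so that CFA, injection and injury cannot be told apart either. The 6 other arrays, of dorsal root ganglion, entered only where stated.

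The quantity followed was the difference in response, that is CFA minus naive in mutant mice less CFA minus naive in control mice, in log2 units. A value below 0 marks a probe set that rose less, or fell more, in mutant than in control mice, and a value above 0 the opposite. An array measures RNA through probe sets, groups of short DNA probes for 1 transcript. Of 35556 probe sets, 23410 were paired with at least 1 gene and tested, 21789 of them with exactly 1. Values are log2 intensities given as mean ± SD with n = 3 arrays, and SE is that of a fitted difference. A probe set was taken as above background on an array where it exceeded 95% of the 1218 probe sets for receptors of smell and pheromones (odorant, vomeronasal and trace-amine families), genes not known for a role in epidermis.

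Skin answers microbial material through sensors in keratinocytes and in resident immune cells such as Langerhans cells, which release cytokines, chemokines and interferons. Type I interferons and interferon-gamma act through receptors that activate STAT proteins and interferon regulatory factors, and these bind the interferon-stimulated response element and the gamma-activated site in promoters of many antiviral and antigen-presenting genes. In the same days the epidermis changes its differentiation, and genes of the cornified layer are lowered.

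Replicate arrays correlated at 0.9921 to 0.9965 over the tested probe sets, array medians lay between 5.37 and 5.48, and 62.3% to 64.2% of probe sets were above background on each epidermis array. The 16 keratinocyte marker genes were all above background. Among genes that mark other cells, Cd207 (langerin, of Langerhans cells), Cd3e (T cells) and Csf1r (macrophages and Langerhans cells) were above background in every group. Markers of cells outside the epidermal sheet were read too. Above background in at least 1 group were 11 of 14 for fibroblast and dermis and 12 of 12 for hair follicle and sebaceous gland. For skeletal muscle it was 8 of 12, for melanocytes 7 of 8 and for endothelial cells 6 of 10. Trpa1 was not above background on any of the 12 arrays (3.80 ± 0.18 in naive control, 3.84 ± 0.07 in naive mutant, 3.85 ± 0.05 in CFA control and 3.80 ± 0.13 in CFA mutant), so that these arrays do not check the deletion in the epidermis. Its difference in response was -0.09 (SE 0.14, adjusted p = 0.91). The study itself reports very little Trpa1 transcript, if any, in control epidermis, and could not observe a reduction in mutant epidermis. Between-array spread for interferon-linked genes was wide among the CFA control arrays, where replicate 2 stood highest and replicate 3 lowest.

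The promoters of 5 genes that the results turn on are printed here. The 3 largest differences in response below 0 among genes with a RefSeq window were those of Cxcl10, Ifit1 and Ifit3, followed here by Rsad2 and the GTPase gene Gbp7. Iigp1 (-3.04), BC023105 (-2.73), Usp18 (-2.51) and Irf7 (-2.45) were not printed, though their differences were larger than that of Gbp7 (-2.43). The 5 are thus a choice and not a rank. Each window runs from upstream of the annotated transcript start to just past it, 300 bases in all, in RefSeq annotation of GRCm38.p6, 5' to 3' on the strand of the gene, and capitals mark each match to the core of the interferon-stimulated response element, GAAA, any 2 bases and GAAA again, on either strand (read from the other strand, TTTC, 2 bases and TTTC).
Cxcl10, chr5:92348840-92349139, minus strand: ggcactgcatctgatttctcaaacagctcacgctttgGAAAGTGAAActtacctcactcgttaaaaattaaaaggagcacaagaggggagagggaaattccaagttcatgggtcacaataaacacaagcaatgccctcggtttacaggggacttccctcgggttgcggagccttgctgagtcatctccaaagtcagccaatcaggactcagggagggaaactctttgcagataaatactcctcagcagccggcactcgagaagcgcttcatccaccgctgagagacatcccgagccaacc
Ifit1, chr19:34640639-34640938, plus strand: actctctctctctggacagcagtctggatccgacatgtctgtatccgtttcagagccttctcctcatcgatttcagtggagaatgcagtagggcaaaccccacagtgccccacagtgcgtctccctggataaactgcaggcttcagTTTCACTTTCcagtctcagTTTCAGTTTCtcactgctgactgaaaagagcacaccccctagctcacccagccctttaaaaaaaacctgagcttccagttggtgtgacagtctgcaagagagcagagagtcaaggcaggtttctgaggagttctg
Ifit3, chr19:34583279-34583578, plus strand: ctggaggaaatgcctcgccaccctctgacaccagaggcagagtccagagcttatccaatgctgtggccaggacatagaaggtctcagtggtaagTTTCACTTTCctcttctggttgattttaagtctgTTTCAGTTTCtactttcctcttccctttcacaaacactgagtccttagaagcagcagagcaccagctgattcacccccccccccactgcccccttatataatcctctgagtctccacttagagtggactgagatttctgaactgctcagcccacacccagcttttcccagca
Rsad2, chr12:26456403-26456702, minus strand: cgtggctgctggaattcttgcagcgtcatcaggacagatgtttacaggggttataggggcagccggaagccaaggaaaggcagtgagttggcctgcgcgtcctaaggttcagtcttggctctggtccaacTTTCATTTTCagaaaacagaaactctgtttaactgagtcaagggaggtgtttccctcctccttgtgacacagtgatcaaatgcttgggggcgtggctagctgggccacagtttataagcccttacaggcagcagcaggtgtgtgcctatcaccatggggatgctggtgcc
Gbp7, chr3:142530086-142530385, plus strand: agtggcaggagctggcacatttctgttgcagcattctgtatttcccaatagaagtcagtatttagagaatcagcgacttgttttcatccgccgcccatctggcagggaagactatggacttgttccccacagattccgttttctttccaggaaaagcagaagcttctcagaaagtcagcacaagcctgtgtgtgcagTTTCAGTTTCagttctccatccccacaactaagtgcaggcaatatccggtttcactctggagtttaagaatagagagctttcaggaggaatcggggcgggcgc

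The element began 213 bases before the start of Cxcl10, 104 and 85 before that of Ifit1, 156 and 122 before that of Ifit3, 120 before that of Rsad2 and 53 before that of Gbp7. These letters were present in 13 of the 34 type I interferon-stimulated genes that had a window (38.2%) and in all 5 of the interferon-induced GTPase genes that had one, against 607 of 15614 genes on the array (3.9%) and 3.4% of the 32851 windows. The core of the gamma-activated site, TTCNNNGAA, was present in 8 of the 34 (23.5%) against 9.0% of genes. The letters TGANTCA, of the AP-1 site, were present in 8 of the 34 as well (23.5%), against 8.1% of genes. A match is a description of the sequence and not a measured binding site, and the motifs can overlap in 1 window.

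Across the 23410 probe sets, 6 had a difference in response at adjusted p under 0.05 (0.0256%), 3 of them above 0 (0.0128%) and 3 below 0 (0.0128%). Below 0 were Cxcl10, the chemokine CXCL10 that draws T cells and NK cells, Clec2d, a C-type lectin-like protein bound by receptors of NK cells, and Gpc3, the cell-surface proteoglycan glypican-3. Above 0 were Nr4a1, an immediate-early nuclear receptor, Adh7, a retinol- and ethanol-oxidising alcohol dehydrogenase, and Slc6a20a, a transporter of proline and related amino acids. At adjusted p under 0.1 there were 10 below 0 and 9 above 0, the 6 included. Nr4a1 and Adh7 kept adjusted p under 0.05 whichever of the 12 arrays was left out, whereas Slc6a20a, Cxcl10, Gpc3 and Clec2d lost it in 10, 9, 9 and 8 of 12 cases. In these cases the 4 kept their direction. The difference ran from -4.96 to -3.62 for Cxcl10, from -2.32 to -1.91 for Clec2d, from -1.36 to -1.12 for Gpc3 and from 1.19 to 1.44 for Slc6a20a. The same contrast without moderation of the variances, and the same fit over all 35556 probe sets, called none of the 6.

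**Figure D1:**
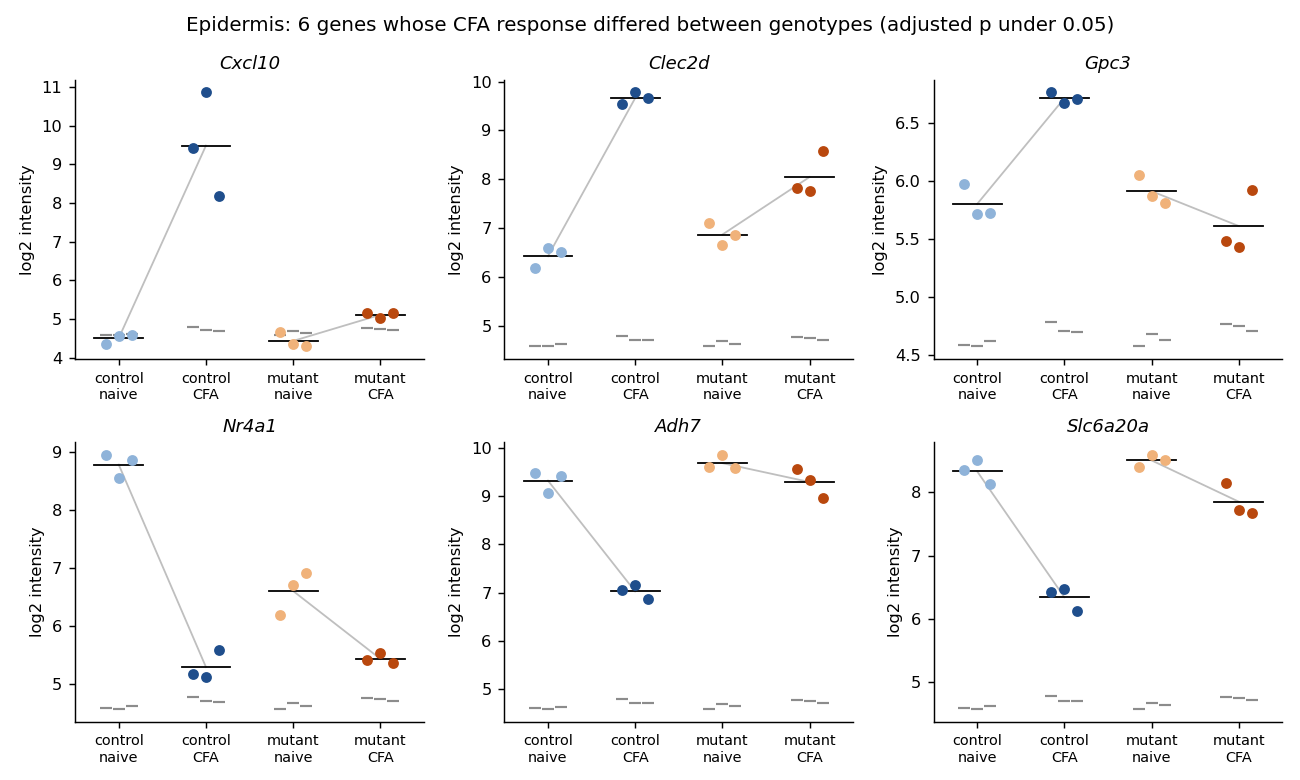
Log2 intensity of the 6 genes called at adjusted p under 0.05 on each of the 12 epidermis arrays (points, replicates 1 to 3 from left to right), with the group mean as a black bar, lines joining the naive and CFA means of a genotype, and the background level of each array as a grey dash. The CFA control and CFA mutant points do not overlap for any gene but Nr4a1, whose naive control points lie well above its naive mutant points.

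Cxcl10 had the largest difference. It was at 4.36, 4.55 and 4.59 on the naive control arrays and at 4.65, 4.35 and 4.29 on the naive mutant arrays, above background on 1 of these 6. After CFA it was at 9.42, 10.86 and 8.17 in control and at 5.14, 5.03 and 5.15 in mutant mice. All CFA control arrays thus stood far above all CFA mutant arrays, and the latter just above background. In control mice Cxcl10 rose at least 29.6-fold over the naive background (log2 difference 4.98, SE 0.44, adjusted p = 2e-06). In mutant mice the log2 difference was 0.68 (adjusted p = 0.29). Between the genotypes after CFA the level in mutant mice was 20.8-fold lower (log2 difference -4.38, adjusted p = 0.00074), and the difference in response was -4.31 (SE 0.62, adjusted p = 0.045).

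Clec2d rose in both genotypes. Naive control arrays read 6.18, 6.59 and 6.50, naive mutant arrays 7.10, 6.65 and 6.85, CFA control arrays 9.54, 9.78 and 9.67, and CFA mutant arrays 7.82, 7.75 and 8.57. The naive mutant arrays lay slightly above the naive control arrays, and after CFA the order was reversed. The rise was 9.45-fold in control and 2.27-fold in mutant mice (adjusted p = 6.3e-08 and 0.00053), with a difference in response of -2.06 (SE 0.27, adjusted p = 0.031).

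Gpc3 rose in control mice. It went from 5.80 ± 0.14 to 6.71 ± 0.05 in control mice (adjusted p = 8.4e-05) and from 5.91 ± 0.13 to 5.61 ± 0.27 in mutant mice (adjusted p = 0.095), with CFA control arrays at 6.76, 6.67 and 6.70 and CFA mutant arrays at 5.48, 5.43 and 5.92. The difference in response was -1.21 (SE 0.17, adjusted p = 0.045).

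Nr4a1 was the only 1 of the 6 whose larger genotype difference was before CFA. Naive control arrays read 8.94, 8.54 and 8.85 and naive mutant arrays 6.19, 6.71 and 6.91, while CFA control arrays read 5.18, 5.12 and 5.59 and CFA mutant arrays 5.42, 5.53 and 5.36. It was thus 4.51-fold lower in naive mutant than in naive control mice (log2 difference -2.17, adjusted p = 0.00028, a call made below 0 for 0.0555% of probe sets), and the log2 difference after CFA was 0.14 (adjusted p = 0.84). It fell 11.2-fold with CFA in control and 2.25-fold in mutant mice, a difference in response of 2.31 (SE 0.25, adjusted p = 0.0075).

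Adh7 and Slc6a20a fell with CFA mainly in control mice. Adh7 read 9.48, 9.08 and 9.43 in naive control, 9.62, 9.86 and 9.60 in naive mutant, 7.05, 7.16 and 6.86 in CFA control and 9.58, 9.35 and 8.97 in CFA mutant mice. Its CFA mutant arrays stayed within 1 log2 unit of the naive arrays, and all 3 CFA control arrays stood lower than any other. The fall was 4.95-fold in control mice (adjusted p = 1.6e-07) and the log2 difference in mutant mice was -0.40 (adjusted p = 0.073), a difference in response of 1.91 (SE 0.21, adjusted p = 0.0075). After CFA it was 4.85-fold higher in mutant than in control mice (adjusted p = 2.9e-05, a call made above 0 for 0.453% of probe sets). Slc6a20a went from 8.33 ± 0.19 to 6.35 ± 0.19 in control and from 8.51 ± 0.09 to 7.86 ± 0.26 in mutant mice, falling 3.96-fold and 1.57-fold, with a difference in response of 1.34 (SE 0.19, adjusted p = 0.045).

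The 13 further probe sets at adjusted p under 0.1 included Csf1r (-0.62, SE 0.10, adjusted p = 0.077), the receptor for colony-stimulating factor 1, and its ligand Csf1 (-1.06, SE 0.18, adjusted p = 0.094). Csf1 read 7.04, 7.42 and 7.26 on the CFA control arrays and 6.34, 6.37 and 6.75 on the CFA mutant arrays. Csf1r rose in control mice (log2 difference 0.47, adjusted p = 0.00019), while its difference in mutant mice was -0.15 (adjusted p = 0.13). After CFA the transcripts of both Csf1 and Csf1r were lower in mutant mice (adjusted p = 0.019 and 0.00033). Cd74, the invariant chain of MHC class II, and Nr4a2, a close relative of Nr4a1, were also among them (-0.72 and 0.75, adjusted p = 0.09 for each).

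**Figure D2:**
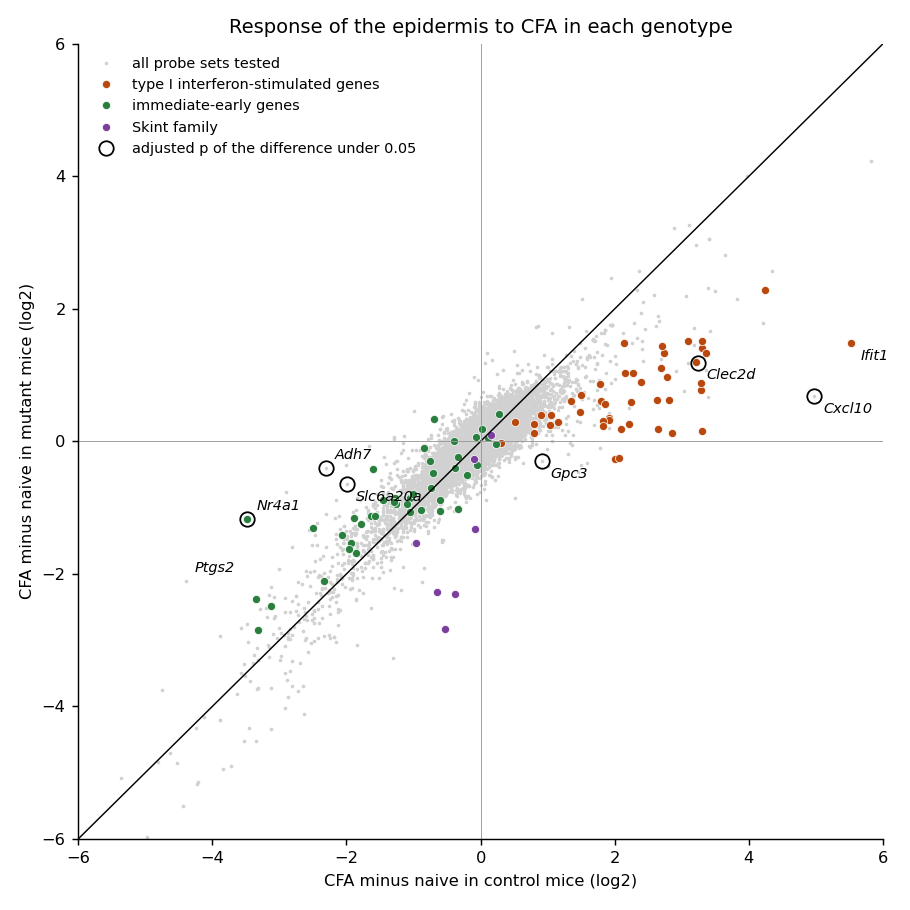
CFA minus naive in mutant mice against CFA minus naive in control mice, in log2 units, for 23410 probe sets (grey) with 45 type I interferon-stimulated genes (orange), 42 immediate-early genes (green) and 7 Skint genes (purple). Points on the black diagonal have equal responses, the 6 genes with adjusted p under 0.05 are ringed, and the interferon-stimulated genes lie to the right of and below the diagonal.

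A size criterion of at least 2-fold at unadjusted p under 0.05 marked 100 probe sets below 0 (0.427%) and 33 above 0 (0.141%). This is a looser criterion than the adjusted p, used here to describe the shape of the difference. Of the 100 below 0, 69 were higher after CFA than before in both genotypes, 12 were higher in control and lower in mutant mice and 19 were lower in both, and for 99 of them the genotypes differed more after CFA than before. Of the 33 above 0, 24 were lower after CFA in both genotypes, 6 were lower in control and higher in mutant mice and 3 were higher in both, and the larger genotype difference was after CFA for 20 and before it for 13. Of the 88 below 0 that named exactly 1 gene, 38 were type I interferon-stimulated or interferon-induced GTPase genes, and of the 32 above 0 none was. These lists held 45 and 10 measured genes, against 21789 probe sets with exactly 1 gene. With so few listed genes, none among 32 says little. The lists were chosen with earlier results of these data known.

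The type I interferon-stimulated genes, which include sensors and effectors against viral RNA, were the group with the most members below 0. All 45 measured members of 50 listed had a difference in response below 0, from -4.05 to -0.21, with a median of -1.58 (-1.05 without CFA control replicate 2) against 0.02 over all probe sets. At unadjusted p under 0.05, 42 of 45 were below 0, where 3.68% of all probe sets were, and none above 0, where 4.58% were. None reached adjusted p under 0.05 for the difference. The members are read on the same arrays and move together there, so their number is not a number of independent observations. With CFA, 45 of 45 rose in control mice at adjusted p under 0.05 (15.0% of all probe sets) and 15 in mutant mice (12.4%), with median log2 differences of 2.16 and 0.61. After CFA, 24 of 45 were lower in mutant mice at adjusted p under 0.05 (0.598%), and 40 had every mutant array below every control array (5.6%). Before CFA the median difference between the genotypes was 0.05, with non-overlapping arrays for 2 members lower and 3 higher in mutant mice (8.93% and 7.66%).

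**Figure D3:**
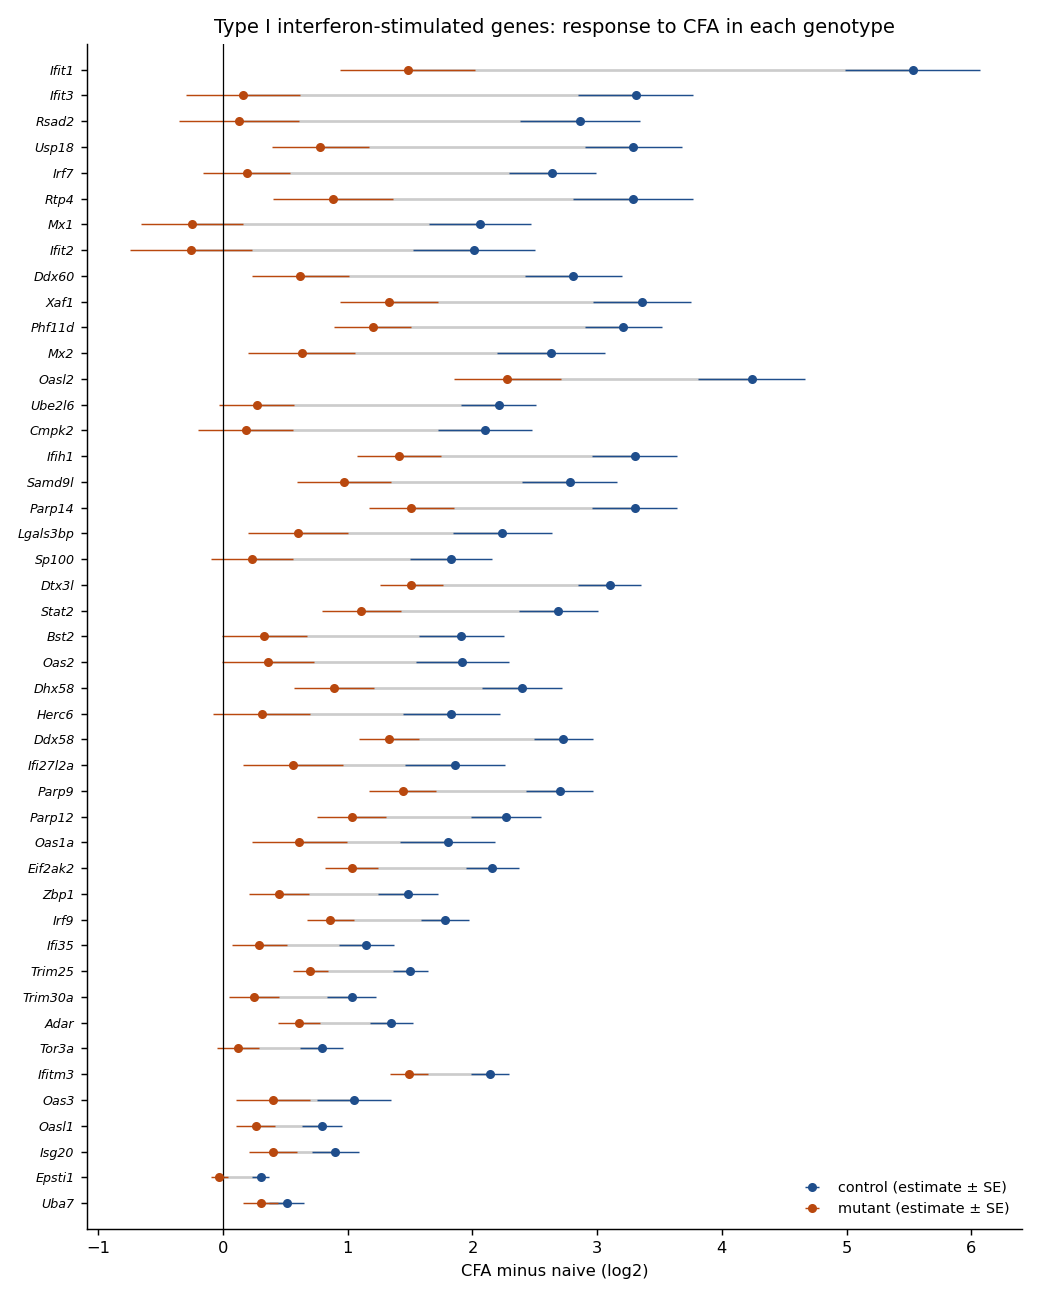
CFA minus naive (log2, estimate ± SE of the fit, 3 arrays per group) for the 45 measured type I interferon-stimulated genes in control (blue) and mutant (orange) mice, ordered by the difference between them. The control estimate lies to the right of the mutant estimate for every gene, with Ifit1 at 5.53 and 1.48.

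Among the effectors, Ifit1, which binds foreign RNA caps, was below background in naive mice and read 8.82, 10.03 and 7.67 on the CFA control arrays against 6.15, 4.69 and 3.84 on the CFA mutant arrays, 1 of the 3 above background. It rose at least 19.0-fold in control mice, and the difference in response was -4.05 (SE 0.76, adjusted p = 0.13). Ifit3, its partner protein, read 6.87, 8.31 and 5.53 in CFA control mice and was below background on all 3 CFA mutant arrays, at least 4.47-fold lower (adjusted p = 0.0079). Rsad2, the antiviral enzyme viperin, read 7.77, 9.40 and 6.51 in CFA control and 5.21, 5.28 and 4.86 in CFA mutant mice, where naive mice of both genotypes had means of 5.03 and 4.99. In mutant mice the log2 difference between CFA and naive was thus 0.13 (adjusted p = 0.88), and in control mice the rise was 7.26-fold. Rtp4, a chaperone of membrane receptors, had every CFA mutant array below every CFA control array. So had BC023105, a GTPase-like gene of unknown role that is on neither the interferon-stimulated nor the GTPase list. Rtp4 read 6.81, 8.30 and 5.90 on the CFA control arrays and was above background on 1 CFA mutant array and on no naive array (adjusted p = 0.35 for the difference in response). BC023105 read 6.02, 6.94 and 4.84 on the CFA control arrays and was not above background on any other, at least 2.28-fold lower in CFA mutant mice (adjusted p = 0.13 for the difference in response).

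Among the regulators, Irf7, the transcription factor that amplifies type I interferon production, read 8.03, 9.11 and 7.30 in CFA control and 6.43, 5.85 and 5.47 in CFA mutant mice. Its log2 response was 2.64 in control (adjusted p = 7.9e-05) and 0.19 in mutant mice (adjusted p = 0.74). Usp18, which removes ISG15 from proteins and restrains the interferon receptor, read 7.89, 8.89 and 7.28 against 6.50, 5.42 and 4.92, a difference in response of -2.51 (SE 0.56, adjusted p = 0.2). The cytosolic RNA sensors Ifih1 (MDA5) and Ddx58 (RIG-I) rose in both genotypes, by 3.30 and 2.73 in control and by 1.41 and 1.33 in mutant mice on the log2 scale. Stat2 and Irf9, partners in the factor that binds the response element, rose by 2.69 and 1.78 in control mice and by 1.11 and 0.86 in mutant mice. The list holds members with a small difference too, such as Ifitm3, which rose by 2.14 and 1.49. The spread among the 3 CFA control arrays was wide, for example an SD of 1.45 for Rsad2.

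The mean level over the 45 genes was between 5.18 and 5.26 on all 6 naive arrays. On the CFA arrays it was 7.29, 8.32 and 6.69 in control mice and 6.20, 5.87 and 5.71 in mutant mice, so the lowest control array stood above the highest mutant array. Without any 1 of the 12 arrays, between 39 and 45 of the 45 were below 0 at unadjusted p under 0.05.

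The interferon-induced GTPases, which attack the membranes around intracellular microbes, had 10 of 19 listed genes measured and 6 of these above background in at least 1 group. Of the 10, 5 (Gbp7, Iigp1, Irgm1, Gbp3 and Gbp2b) were below 0 at unadjusted p under 0.05 (3.68% of all probe sets), and after CFA these 5 were lower in mutant mice at adjusted p under 0.05 (0.598%). Gbp7 read 8.90, 10.43 and 8.02 in CFA control and 6.99, 6.84 and 6.43 in CFA mutant mice, and rose in both genotypes, 18.6-fold and 3.45-fold. Iigp1 read 7.64, 8.82 and 5.40 in CFA control and at most 4.91 in CFA mutant mice, with the naive arrays below background. Gbp4, Gbp5, Gbp8 and Gbp11 were below background in every group. GBP genes are close in sequence and lie side by side, and probes may cross-hybridise between them.

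Of the interferons, their receptors and the nucleic acid sensors, 28 genes were measured, with a median difference of -0.03. At unadjusted p under 0.05, 5 were below 0 (3.68% of all probe sets) and none above 0 (4.58%). The receptor subunits Ifnar1 and Ifngr1 rose in control mice by 0.42 and 1.74 and had differences in response of -0.18 and -0.39 (adjusted p = 0.80 and 0.81). The keratinocyte interferons Ifnk and Ifne were below background on all arrays. Irf1, a factor induced by interferon-gamma, read 6.65, 7.14 and 6.53 in CFA control and 5.44, 5.50 and 6.18 in CFA mutant mice, a difference in response of -1.06 (SE 0.26, adjusted p = 0.26) on the brighter of its probe sets and of 0.21 on the dimmer, which was near background. Sting1, the adaptor of cytosolic DNA sensing, divided the mutant arrays. It was at 9.03, 9.06 and 9.02 in CFA control and at 6.35, 6.36 and 9.11 in CFA mutant mice, against 4.69 in naive mice of both genotypes, so that mutant replicate 3 reached the control level (difference in response -1.76, SE 0.74, adjusted p = 0.55, and without that array -2.68, adjusted p = 3.9e-05).

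Of the 30 chemokines measured, the median difference was 0.02. At unadjusted p under 0.05, 1 was above 0 (4.58% of all probe sets) and 4 were below 0 (3.68%). Beside Cxcl10 these were Cxcl9, a second ligand of the T-cell receptor CXCR3 (-1.68, SE 0.75, adjusted p = 0.59, from -2.55 to -1.10 as single arrays were left out), and the monocyte attractants Ccl2 (-0.56, SE 0.17, adjusted p = 0.37) and Ccl7 (-0.67, SE 0.21, adjusted p = 0.40). Ccl2 and Ccl7 rose in control mice by 0.82 and 0.75 (adjusted p = 0.00014 and 0.0018) and were both lower in mutant mice after CFA (adjusted p = 0.048 and 0.021). The neutrophil attractant Cxcl1 rose in both genotypes, by 1.26 and 0.92, with a difference in response of -0.34 (SE 0.25, adjusted p = 0.75). Above 0 was Cxcl14, a chemokine made by resting epidermis, which fell from 8.27 ± 0.14 to 6.65 ± 0.50 in control mice and went from 8.30 ± 0.11 to 7.87 ± 0.50 in mutant mice (difference in response 1.19, SE 0.34, adjusted p = 0.36).

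The 16 measured genes of antigen processing and MHC, all above background, had differences in response from -0.79 to -0.04 with a median of -0.49 (-0.29 without CFA control replicate 2), and 7 were below 0 at unadjusted p under 0.05 (3.68% of all probe sets). At adjusted p under 0.05, 14 of 16 rose in control mice (15.0% of all probe sets). In mutant mice 8 rose (12.4%) and 1 fell (13.2%). The SE was 0.11 to 0.14 for the class II genes H2-Aa, Cd74, H2-Ab1 and H2-DMa and 0.46 for H2-Eb1. H2-Ab1, a beta chain of MHC class II, read 9.38, 9.31 and 9.48 in CFA control and 8.75, 8.89 and 8.83 in CFA mutant mice, against means of 8.63 and 8.68 in naive mice. Cd74 read 9.95, 10.09 and 9.91 against 9.46, 9.71 and 9.52. H2-Ab1 and Cd74 rose in control mice (0.76 and 0.89, adjusted p = 2.3e-05 and 4.8e-06), while in mutant mice the log2 differences were 0.14 and 0.17 (adjusted p = 0.27 and 0.17). H2-DMa, which loads peptide on class II, had differences of 0.16 in control (adjusted p = 0.25) and fell by 0.44 in mutant mice (adjusted p = 0.0053). The class I pathway genes Tap1 and Psmb8, a peptide transporter and an immunoproteasome subunit, rose in both genotypes, by 1.71 and 1.81 in control and by 1.10 and 1.30 in mutant mice. H2-Eb1 was lower in mutant mice after CFA (-1.64, adjusted p = 0.035) and had a log2 difference of -0.85 before it (adjusted p = 0.71), and its difference in response, -0.79 (adjusted p = 0.68), was -0.40 without CFA mutant replicate 1.

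Class II transcripts in epidermis belong largely to Langerhans cells. Of the 9 Langerhans cell markers, 8 were above background and 4 (Csf1r, Cd74, Cd207 and Mfge8) were below 0 at unadjusted p under 0.05 (3.68% of all probe sets). The mean over the 9 was 7.12 to 7.23 in naive control, 7.13 to 7.17 in naive mutant, 7.28 to 7.36 in CFA control and 6.95 to 6.99 in CFA mutant mice, so that the CFA groups lay on either side of the naive ones without overlap. Cd207 was at 6.44 in naive control, 6.28 in naive mutant, 6.82 in CFA control and 6.12 in CFA mutant mice, and lower in mutant mice after CFA (-0.70, adjusted p = 0.015). Of 19 macrophage and monocyte markers 9 were above background, and 4 (Csf1r, Fcgr3, Tyrobp and Fcer1g) were below 0 at unadjusted p under 0.05 (3.68%). The mean level of the 19 was 4.92 to 5.07 in CFA control and 4.73 to 4.79 in CFA mutant mice. Csf1r is on both marker lists and Cd74 also on the MHC list, so the counts share members. Of the 14 T-cell markers 5 and of the 8 NK-cell markers 1 were above background, and none was past unadjusted p under 0.05 in either direction. T-cell means were 4.89 to 5.11 in CFA control and 4.93 to 5.04 in CFA mutant mice. Of the 17 neutrophil markers 7 were above background, and 1 (Il1r2) was above 0 at unadjusted p under 0.05 (4.58% of all probe sets). Il1r2 was already at 8.69 in naive control and 8.58 in naive mutant mice. It fell with CFA by 2.49 in control and by 1.96 in mutant mice, so it is no clear sign of neutrophils here. The keratinocyte markers averaged 11.41 to 11.47 in CFA control and 11.46 to 11.55 in CFA mutant mice. Of the 14 fibroblast and dermis markers, 2 were below 0 at unadjusted p under 0.05 (3.68% of all probe sets) and none above 0 (4.58%). The lowest of the 14 differences in response was -1.37. Fewer cells of a type and less RNA per cell cannot be told apart in bulk tissue. The part of Langerhans cells, macrophages or dermal cells in the results was not tested.

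**Figure D4:**
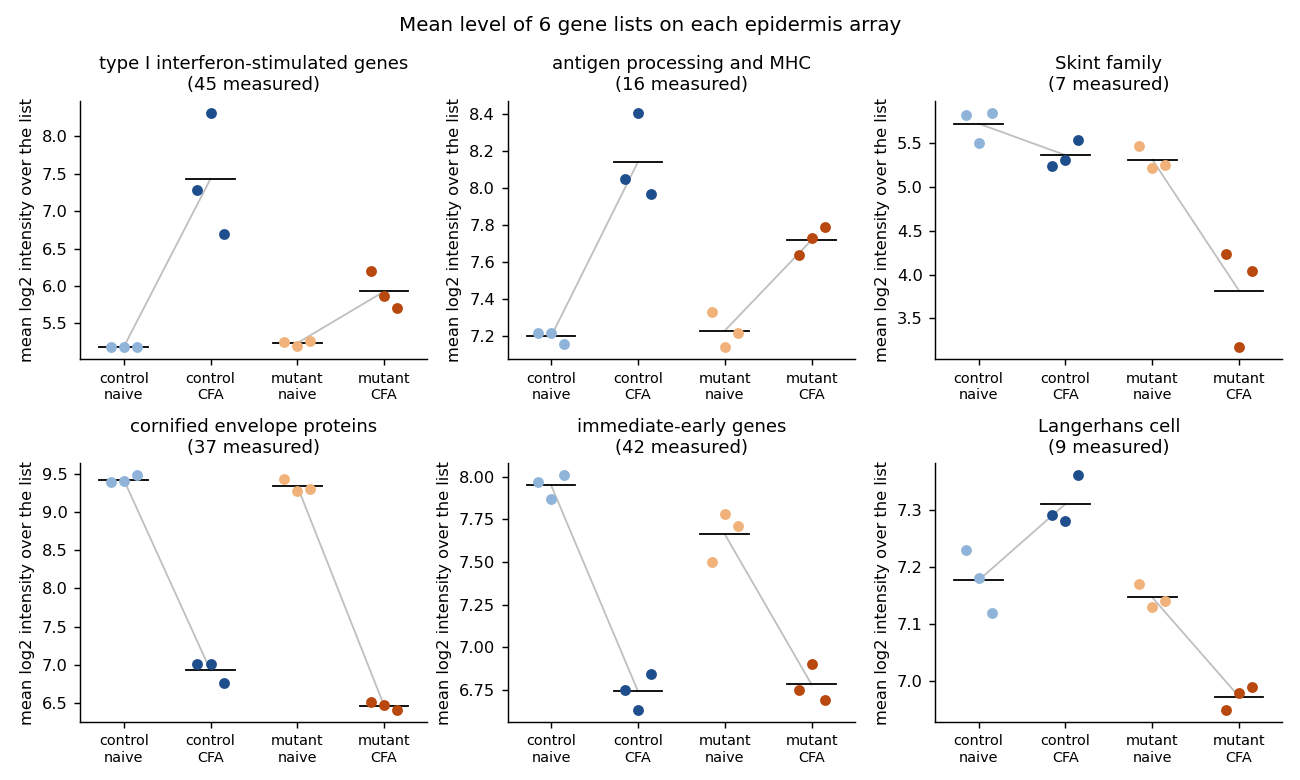
Mean log2 intensity over 6 gene lists on each epidermis array (points, replicates 1 to 3 from left to right), with the group mean as a black bar and lines joining the naive and CFA means of a genotype. The CFA groups do not overlap for 5 of the lists, and for the immediate-early genes the naive groups lie apart (7.87 to 8.01 in control and 7.50 to 7.78 in mutant mice) while the CFA groups overlap.

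The Skint genes, which encode immunoglobulin-like membrane proteins of keratinocytes and of which the founding member selects epidermal gamma delta T cells, fell with CFA in mutant mice. Of 11 listed, 7 were measured and 5 were above background. At adjusted p under 0.05, 5 of 7 fell in mutant mice (13.2% of all probe sets) and 2 in control mice (17.2%). At unadjusted p under 0.05, 4 had a difference in response below 0 (3.68%). Skint9 read 5.89, 5.94 and 6.40 in naive control, 5.68, 4.82 and 4.80 in naive mutant, 5.28, 5.40 and 5.60 in CFA control and 3.15, 2.67 and 2.64 in CFA mutant mice, the last group below background (difference in response -1.63, SE 0.31, adjusted p = 0.13). Skint10 read 5.47, 5.83 and 6.08 in CFA control mice and was below background on all CFA mutant arrays, at least 2.07-fold lower. Skint4 read 7.32, 7.58 and 7.61 against 5.74, 3.88 and 5.67. Skint3 read 7.43, 7.74 and 7.88 against 6.42, 2.79 and 5.96. Replicate 2 of the CFA mutant mice was thus the lowest for both (without it the log2 differences in response were -1.17 for Skint3 and -1.32 for Skint4). All CFA mutant arrays were below all CFA control arrays for 5 of 7 (5.6% of all probe sets). A gap was present before CFA too, since Skint4, Skint9 and Skint10 had all naive mutant arrays below all naive control arrays (8.93% of all probe sets). Skint genes are similar neighbours, and probes may read more than 1 of them.

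Cornified envelope proteins are cross-linked under the membrane of the dying keratinocyte and give the barrier its strength. Of 37 measured, 34 fell with CFA in control mice (17.2% of all probe sets) and 31 in mutant mice (13.2%), with median log2 differences of -2.72 and -2.99. The difference in response had a median of -0.37 (-0.15 without CFA mutant replicate 1). At unadjusted p under 0.05, 15 were below 0 (3.68% of all probe sets) and 1 above 0 (4.58%), and 9 were lower in mutant mice after CFA at adjusted p under 0.05 (0.598%). The late cornified envelope cluster held 10 of the 15. Lce1e read 11.80, 11.95 and 12.06 in naive control, 12.42, 12.35 and 12.29 in naive mutant, 9.21, 9.79 and 8.92 in CFA control and 8.69, 8.27 and 7.76 in CFA mutant mice. It was thus higher on the mutant arrays before CFA and lower after it (difference in response -1.48, SE 0.31, adjusted p = 0.17). Crct1, a neighbour in the epidermal differentiation complex, fell by 4.44 in control and fell by 5.50 in mutant mice. Sprr2d, a small proline-rich cross-linking protein, fell by 1.31 in control and fell by 3.27 in mutant mice, while Lor (loricrin) fell by 1.63 in control and fell by 2.52 in mutant mice. Lce1 genes are near-identical copies whose probes may cross-hybridise, so they are not separate observations. The letters TGANTCA, the AP-1 site, were present in 13 of the 34 promoter windows of this list (38.2%) and in 8.1% of genes. Among the interferon-stimulated genes their share was above that of all genes too (23.5%).

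Immediate-early genes are switched on within minutes by growth factors, stress or handling of tissue. Of 42 measured, 34 fell with CFA in control mice (17.2% of all probe sets) and 30 in mutant mice (13.2%). The difference in response had a median of 0.28, with 14 above 0 (4.58% of all probe sets) and 1 below 0 (3.68%) at unadjusted p under 0.05, and Nr4a1 as the only member at adjusted p under 0.05 among 42. The genotypes lay apart before CFA, with 16 of 42 having every naive mutant array below every naive control array (8.93% of all probe sets) and 5 every one above (7.66%). After CFA, 3 lay below in this sense (5.6%) and 5 above (8.68%). The median genotype difference was -0.24 before and 0.05 after CFA. The mean over the 42 was 7.97, 7.87 and 8.01 on the naive control arrays and 7.50, 7.78 and 7.71 on the naive mutant arrays, and the CFA arrays of both genotypes ran from 6.63 to 6.90. Egr1 had means of 9.73 and 9.14 in naive and 7.23 and 7.83 in CFA control and mutant mice, with log2 responses of -2.50 and -1.31 (difference in response 1.19, SE 0.37, adjusted p = 0.40). Fosl1, an AP-1 subunit, had naive means of 7.37 and 6.20, and Arc read 6.25, 5.82 and 6.51 against 5.42, 5.41 and 5.47. Dusp1, a MAP kinase phosphatase, fell by 3.35 in control and fell by 2.38 in mutant mice. Ptgs2, the inducible cyclooxygenase, and Hbegf, a ligand of the EGF receptor, were on other lists and behaved likewise. Ptgs2 read 9.66, 9.43 and 9.17 in naive control and 6.60, 7.72 and 8.14 in naive mutant mice, 5.02 ± 0.37 in CFA control and 5.37 ± 0.68 in CFA mutant mice, with a difference in response of 2.29 (SE 0.52, adjusted p = 0.22). Hbegf had naive means of 8.59 and 7.74 and CFA means of 6.43 and 6.86.

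**Figure D5:**
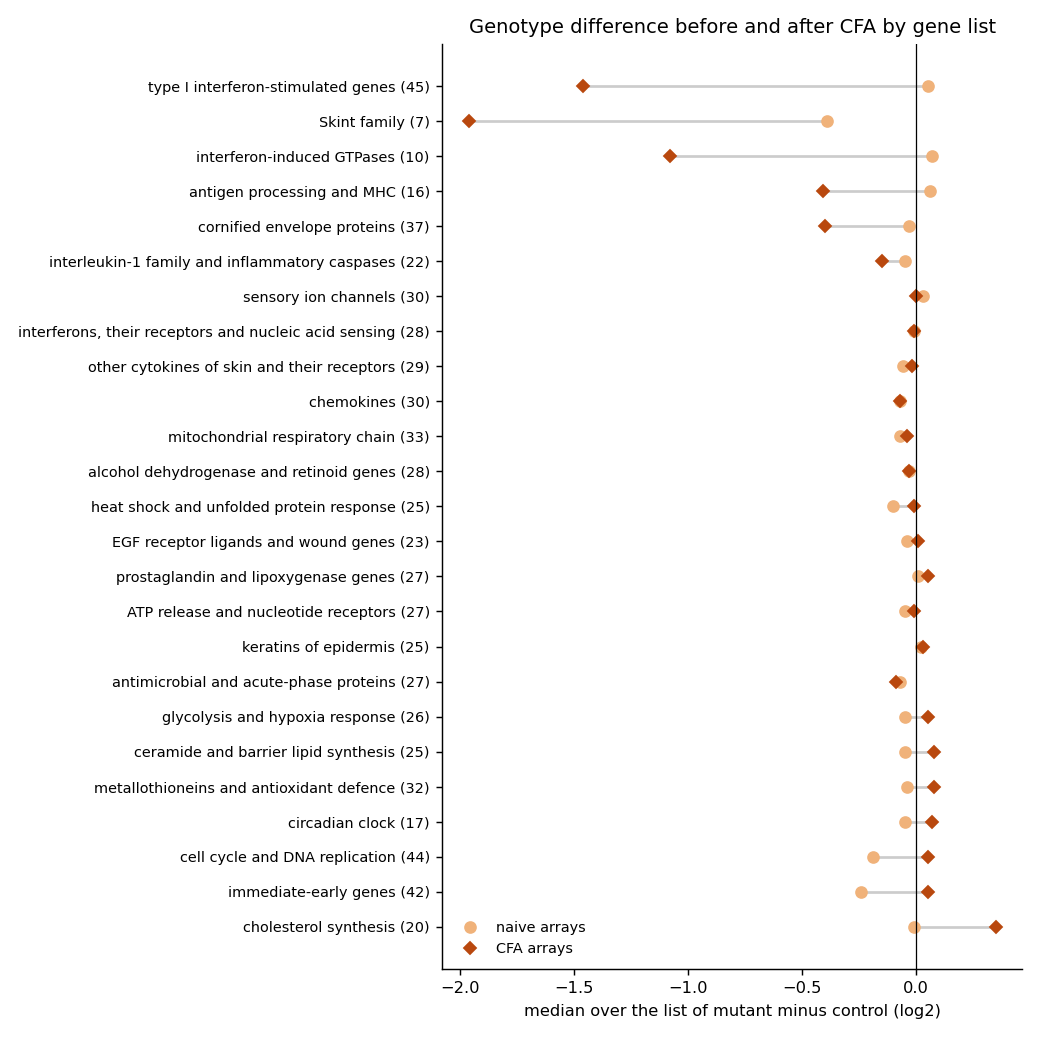
Median over each of 25 gene lists of the mutant minus control difference (log2) on naive arrays (circles) and on CFA arrays (diamonds), with the number of genes measured in brackets, ordered by the median difference in response. Interferon-stimulated genes, Skint genes, GTPases, MHC and cornified envelope genes lie to the left after CFA, and immediate-early, cell cycle and, by -0.39, Skint genes to the left before it.

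Among 28 alcohol dehydrogenase and retinoid genes the median difference was 0.03. At unadjusted p under 0.05, 6 were above 0 (4.58% of all probe sets) and 2 below 0 (3.68%), with Adh7 alone at adjusted p under 0.05. The alcohol dehydrogenases did not move alike. Adh1 was lower in mutant mice before CFA (-1.45, adjusted p = 0.025) and after it (-1.55, adjusted p = 0.0056). Its difference in response was -0.10 (SE 0.29, adjusted p = 0.95). Adh6a read 7.31, 8.38 and 6.80 in naive control and 5.01, 5.18 and 5.04 in naive mutant mice, was lower in naive mutant mice (-2.42, adjusted p = 0.006), and had a difference in response of 1.67 (SE 0.40, adjusted p = 0.25). Adh6b was likewise lower in naive mutant mice (-1.44, adjusted p = 0.025), whereas Adh7 had its gap after CFA. Stra6, the receptor for retinol-binding protein, fell by 1.99 in control and fell by 1.43 in mutant mice. Of other genes that the study names, Lynx1 was lower in naive mutant mice (-1.18, adjusted p = 0.00049), with a difference in response of 0.69 (adjusted p = 0.18). Slc15a2, Pnpla3 and Mgarp had differences in response of 0.60, -0.63 and -0.53 (adjusted p = 0.86, 0.48 and 0.58). Itpripl2 had 0.79 and 0.16 on separate probe sets (adjusted p = 0.53 and 0.83).

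Other genes were named for the size of a difference above 0 at unadjusted p under 0.01. Tppp3, a tubulin-binding protein, read 6.58, 6.77 and 6.33 in CFA control and 8.79, 9.47 and 7.62 in CFA mutant mice, against 9.46 and 9.39 in naive mice (difference in response 2.14, SE 0.46, adjusted p = 0.18). Fhl1 (a LIM-domain protein) and Slc7a8 (an amino acid transporter) fell in control mice by 1.29 each and had log2 differences of 0.06 and 0.03 in mutant mice. Chn2, a Rac-inactivating protein, rose in mutant mice by 1.33 (adjusted p = 0.0031), and in control mice its difference was 0.09. Cd59a, an inhibitor of complement, and the pseudogene Gpr137b-ps had differences in response of 1.46 and 1.60 (SE 0.48 and 0.43, adjusted p = 0.43 and 0.33). Krt9, the keratin of palm and sole skin, read 11.58, 10.34 and 10.20 in CFA control and 11.93, 12.02 and 11.74 in CFA mutant mice, against means of 11.87 and 12.03 in naive mice (difference in response 1.03, SE 0.37, adjusted p = 0.48).

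Genes of cholesterol synthesis fell in both genotypes, by medians of 1.42 and 1.10 on the log2 scale in control and mutant mice. At adjusted p under 0.05, 20 of 20 measured fell in control (17.2% of all probe sets) and 19 in mutant mice (13.2%). The median difference in response was 0.35 (0.22 without CFA control replicate 3 or CFA mutant replicate 1). At unadjusted p under 0.05, 5 (Idi1, Fdps, Lss, Cyp51 and Nsdhl) were above 0 (4.58% of all probe sets) and none below 0 (3.68%). None differed between the genotypes after CFA at adjusted p under 0.05. The genes of ceramide and barrier lipid synthesis fell as well at adjusted p under 0.05, 24 of 25 in control (17.2%) and 23 in mutant mice (13.2%). Their differences in response ran from -0.20 to 0.69, with none past unadjusted p under 0.05 in either direction.

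Serpina3n, an acute-phase protease inhibitor, rose by 5.83 in control and by 4.23 in mutant mice, with a difference in response of -1.60 (SE 0.90, adjusted p = 0.68, 95% interval -3.54 to 0.35). Its CFA mutant arrays read 8.79, 7.71 and 11.17 against 10.22, 10.32 and 11.45 in control mice, and the difference was -2.57 without mutant replicate 3 and -0.84 without mutant replicate 2. Stfa3, a stefin that inhibits cathepsins, rose by 1.31 in control mice (adjusted p = 0.001) and was at -0.19 in mutant mice (difference in response -1.50, SE 0.34, adjusted p = 0.22). The beta-defensin gene Defb3 fell by 2.56 in control and fell by 1.34 in mutant mice. Krt6a, a keratin of injured epidermis, had responses of 0.57 (adjusted p = 0.12) and 1.03 (adjusted p = 0.012) and a difference of 0.46 (SE 0.37, adjusted p = 0.78). Of the interleukin-1 family and the other cytokines, 22 and 29 genes were measured, with medians of -0.13 and -0.03. At unadjusted p under 0.05, 3 were below 0 in each list (3.68% of all probe sets), and 2 and 1 were above 0 (4.58%). The 44 cell cycle genes had none past that level in either direction, with 43 of 44 above 0 and a median of 0.23, which ran from 0.03 (without CFA control replicate 1) to 0.38 (without CFA control replicate 2) as single arrays were left out. Of the 44, 16 had every naive mutant array below every naive control array (8.93% of all probe sets) and none every one above (7.66%). For the 30 sensory ion channels the differences ran from -0.36 to 0.40, and for the 33 respiratory chain genes from -0.26 to 0.29.

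In dorsal root ganglion of naive mice, where the 6 genes called in epidermis could be read as well, mutant minus control ran from -0.55 for Cxcl10 to 0.41 for Slc6a20a (limma on those 6 arrays, adjusted p from 0.62 to 0.99), and Adh7 was below background there.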

How the data were processed

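Epidermis of 12 mice was hybridised to Affymetrix Mouse Gene 1.0 ST arrays, 1 array per sample, and the authors deposited log2 intensities for 35556 probe sets, made, per the labels, with RMA and Partek. The ganglion arrays have another distribution (medians 6.51 to 6.58) and were treated as normalised apart from the epidermis. Probe sets carried no gene names in the deposited table and were named from the platform annotation. The 12 arrays were fitted here with limma 3.58.1 (R 4.3.3) as 4 group means, with the contrast of both CFA responses, moderated variances without trend, and Benjamini-Hochberg adjustment over the 23410 named probe sets. The study states an ANOVA in Partek. An ordinary ANOVA of the same contrast, without moderation of the variances, was run here as an alternative, and the study's own analysis was not repeated. Where a gene had several probe sets of its own, the one with the highest mean was read. A fold against a group below background is a lower bound, computed against the mean background level of that group's arrays. Figures and counts used Python. The fit was tested on simulated data before use.

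The members and gene lists (43 lists, 859 of 938 entries measured) were chosen with earlier results of these data known. Named genes were the called ones, up to 12 in each direction with the largest difference at unadjusted p under 0.01, the genes the study names and the leading members of each list. Members named beyond that rule were chosen after their values were seen. Replicates are labelled as separate samples, the labels do not tie replicate numbers to a shared day, and same-numbered arrays did not deviate together (r from -0.236 to 0.233), so the replicate number was not used as a block. Scan dates are not given in the sources used here, and the number of arrays limits the precision. Alternatives were other normalisations, filters, samples, tests and the omission of each array.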

Additional observations from a re-analysis of the deposited data

Results flagged for a closer look

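The response to CFA differed between control and mutant mice, by the test of the difference itself (limma, adjusted p under 0.05), for 6 genes. The differences were -4.31 for Cxcl10, -2.06 for Clec2d, -1.21 for Gpc3, 1.34 for Slc6a20a, 1.91 for Adh7 and 2.31 for Nr4a1 on the log2 scale. Cxcl10, Clec2d and Gpc3 were lower, and Adh7 and Slc6a20a higher, in mutant than in control mice after CFA, and Nr4a1 was lower in mutant mice before it.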

How the results depend on the processing

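The number of probe sets called at adjusted p under 0.05 (3 above 0 and 3 below 0) changed with the processing, and the cause was not tested. It was 23 above 0 and 38 below 0 with all 18 arrays in one fit, 8 and 13 with array weights, 8 and 7 with trend and robust options, 5 and 4 with dim probe sets left out, 4 and 2 with arrays centred on their median, 3 and 4 after further quantile normalisation, 9 and 10 at adjusted p under 0.1, and 0 and 0 both with an ordinary ANOVA (1199 and 753 at unadjusted p under 0.05) and with all probe sets of the table tested, where 176 and 182 probe sets passed 2-fold at unadjusted p under 0.05, unnamed ones included. With the replicate number as a block 4 were called, all among the 6, with 1 in place of 3 below 0 (Cxcl10 at adjusted p 0.065, Gpc3 at 0.066). Without 1 array, the counts ran from 2 to 35 above 0 and from 0 to 71 below 0. Without CFA control replicate 3, 87 were called, without CFA mutant replicate 3, 76, and without any other array 2 to 8. The 2-fold counts ran from 25 to 43 above 0 and from 73 to 128 below 0 without 1 array. Of the 45 interferon-stimulated genes, 35 (ordinary ANOVA) to 45 were below 0 at unadjusted p under 0.05 under all alternatives, a check chosen after seeing the data, as were those for 5 other lists (cornified envelope 11 to 17, immediate-early 9 to 17, antigen processing 5 to 11, GTPases 4 to 7 and Skint 3 to 4). Of the 71 genes recomputed under the alternatives, each kept its direction wherever an alternative gave it a value, except Trpa1, from -0.18 to 0.00 as single arrays were left out. With 3 arrays per group, probe sets near background are read with little precision.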
